A study of Mus musculus with 12 samples.

Results

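Epididymal white adipose tissue (eWAT) of ob/ob mice that had received rosiglitazone was set against eWAT of lean mice that had received vehicle. The question was what differed from lean tissue after the drug. Its members are the 4 eWAT libraries with these labels, 2 labelled WT-Veh and 2 labelled ob/ob-Rosi, of 12 libraries in the series. They held 40697 of the 126095 barcodes kept in all 12. Each library is 1 male mouse, 12 weeks old, of the C57BL/6J background, and was made from the stromal vascular fraction, the cells left once fat is digested with collagenase and the floating adipocytes are taken off. The lean mice were wild type at Lep and received methylcellulose. The obese mice were homozygous for the Lep ob allele (Lepob/Lepob, ob/ob) and received rosiglitazone at 30 mg/kg by gavage in the morning and evening for 3 days. 2 further eWAT libraries, labelled ob/ob-Veh (ob/ob mice on vehicle), entered the fits for the estimate of the spread, and their values are given beside the others. Genotype, obesity and drug change together between the groups compared and cannot be told apart.

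Rosiglitazone is a thiazolidinedione, an agonist of PPARG, the nuclear receptor that pairs with RXR and drives the genes of fat cell differentiation and fatty acid storage. PPARG also acts in macrophages and in the capillary endothelium of fat, where its targets include carriers and channels for fatty acids and glycerol. The ob mutation leaves the mouse without working leptin, and obesity in these mice brings macrophages that take up lipid into the epididymal depot. Leptin RNA is still made from the ob allele and is raised in ob/ob fat.

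A barcode was kept with 700 to 22000 UMIs (unique molecular identifiers, 1 for each captured RNA molecule), 200 to 6000 genes and under 25% of its UMIs from the mitochondrial genome. This left 14718 and 6472 cells in the WT-Veh-labelled libraries, and 9439 and 10068 in the ob/ob-Rosi-labelled libraries. Median UMIs per cell were 2046 and 4398.5 in the first pair and 2341 and 4961 in the second, so depth varied as much within a group as between groups. UMIs were summed per library, for all kept cells and for each class of cells, and levels are given as CPM, the UMIs of a gene scaled to the size of that sum. Cells were clustered over the 6 eWAT libraries and clusters named from marker genes, with the ending "-like" because no cell annotation was used. A gene passed the test when its adjusted p was 0.05 or less and it moved by 1.1-fold or more. The test was edgeR's quasi-likelihood test with Benjamini-Hochberg adjustment. It had 3 residual degrees of freedom with 6 libraries and 2 where a class was fitted on 4. Log2 changes are given ± SE, ob/ob-Rosi minus WT-Veh.

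The labels were checked first. Read per Adipoq UMI, Lep went with the genotype labels between the groups compared here and against them for the ob/ob-Veh-labelled libraries. Adipocyte transcripts were scarce in this fraction, so Lep was read per Adipoq UMI, both being adipocyte genes. Adipoq, also on the PPAR target list used below, was itself uneven. It stood at 2.80 and 2.34 CPM in WT-Veh, 0.725 and 1.15 in ob/ob-Rosi and 3.51 and 6.33 in ob/ob-Veh. Lep alone stood at 0.784 and 0.996, 1.74 and 4.49, and 0.139 and 1.03 CPM in the same order. By CPM the ob/ob-Veh and WT-Veh pairs thus overlapped. For every 100 Adipoq UMIs the count of Lep UMIs was 240.0 and 390.1 in the ob/ob-Rosi-labelled libraries, 28.0 and 42.5 in the WT-Veh-labelled libraries and 3.95 and 16.2 in the ob/ob-Veh-labelled libraries. The exact 95% counting intervals were 1.57 to 8.32 and 11.5 to 22.5 for the ob/ob-Veh pair and 18.4 to 41.4 and 28.1 to 63.2 for the WT-Veh pair, an order opposite to what is known of ob/ob fat, although ob/ob-Veh 2 and WT-Veh 1 overlapped in their intervals. The ob/ob-Rosi pair was above the WT-Veh pair, as is known of ob/ob against lean fat. That reading takes the genotype alone. The pair is also labelled as given a PPARG agonist, and it held the lowest Adipoq and the highest Lep of the eWAT pairs. What the drug does to this ratio was not tested, so the check does not cover the drug label. In the inguinal depot (iWAT) the ob/ob-Veh pair, at 36.4 and 15.1, overlapped the WT-Veh pair, at 20.1 and 31.6, and the ob/ob-Rosi pair was again above both, at 163.7 and 140.7. Lipid-associated macrophages (LAM), which gather in obese epididymal fat, made up 0.251% and 0.606% of the cells labelled ob/ob-Veh but 20.2% and 17.2% of the WT-Veh-labelled libraries. Macrophages filled with lipid can float off with the adipocytes, so their share in this fraction need not be that of the tissue. Of 27 PPAR target genes tested in the endothelial cell-like (EC-like) cells, 3 passed as lower in the ob/ob-Rosi-labelled libraries and 0 as higher, where 0.249% of all genes passed. A library is therefore named by its label alone throughout, directions are those of the labels, and whether labels were exchanged was not tested.

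**Figure D1:**
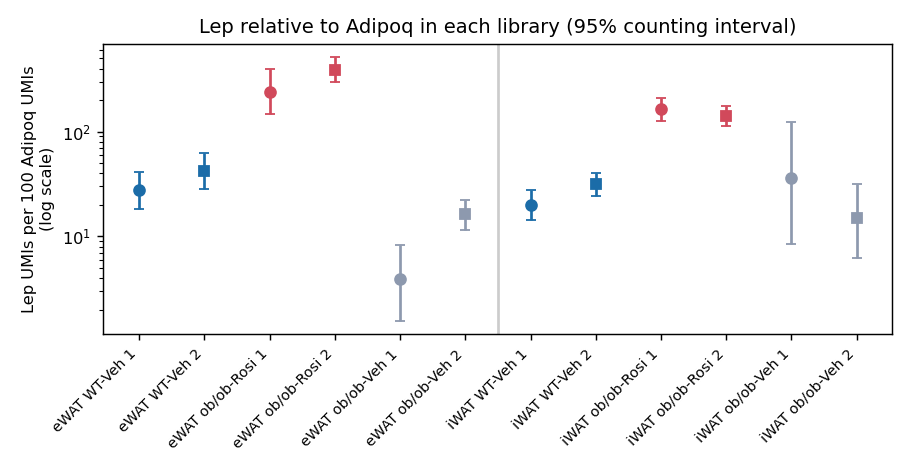
Lep UMIs per 100 Adipoq UMIs in each of the 12 libraries of the series (log scale), with exact 95% counting intervals as bars, colours for the labelled groups, and eWAT left of the line and iWAT right of it. The 2 eWAT libraries labelled ob/ob-Rosi sit at 240.0 and 390.1, above the WT-Veh (28.0 and 42.5) and ob/ob-Veh (3.95 and 16.2) pairs.

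Of 12 classes of cells, 1 differed in its share between the groups compared, the B cell-like (BC-like) cells. They were 1.11% and 1.47% of cells in the WT-Veh-labelled libraries and 0.339% and 0.497% in the ob/ob-Rosi-labelled libraries (164, 95, 32 and 50 cells), against 1.06% and 0.748% in the ob/ob-Veh-labelled libraries. The log2 ratio was -1.62 ± 0.342 (edgeR's quasi-likelihood test, adjusted p = 0.0353), a share 0.326 times as large. The call was lost without any 1 of the 6 libraries and in the 4 libraries alone (adjusted p = 0.12), with ratios of -1.92 to -1.37 when 1 library was left out. With cells assigned singly to classes it was -0.764 ± 0.223 (adjusted p = 0.171). With a block on the replicate number it was -1.62 ± 0.611 and did not pass either (adjusted p = 0.168).

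Preadipocyte-like cells, named from markers of the stromal cells nearest to the fat cell, made up 21.8% and 20.9% in the WT-Veh-labelled libraries and 21.1% and 21.7% in the ob/ob-Rosi-labelled libraries. Progenitor-like cells, their Pi16- and Dpp4-positive precursors, were 1.94% and 4.33% against 4.23% and 1.87%. LAM-like cells were 20.8% and 22.7% in the ob/ob-Rosi-labelled libraries, beside the 20.2% and 17.2% given above. None of these 3 classes passed (adjusted p = 0.954 to 0.996). Replicates of a group filled different preadipocyte-like clusters. The largest held 2100 and 95 cells of the WT-Veh pair and 1362 and 46 of the ob/ob-Rosi pair. Its leading genes included AY036118, mt-Atp8, the macrophage marker Tyrobp and the LAM markers Trem2 and Lgals3. Another, led by Ndufa4l2 and Cxcl14, held 58 and 648 against 135 and 1498. Non-perivascular macrophage-like (NPVM-like) cells, a monocyte-like class, were 5.33% and 3.18% against 8.77% and 6.43% without overlap, a log2 ratio of 0.83 ± 0.42 that did not pass (adjusted p = 0.56). EC-like cells varied more within groups than between them, at 2.69% and 8.59% against 5.24% and 9.83%.

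The ob/ob-Veh-labelled libraries stood apart from all 4. They held 37.6% and 28.0% progenitor-like, 4.00% and 7.62% preadipocyte-like and 6.47% and 6.32% mesothelial-like cells, the last a layer that covers the epididymal pad. The split of stromal cells depended on the clustering, which was at resolution 1. At resolution 2 the ob/ob-Veh-labelled libraries held 19.3% and 11.0% progenitor-like and 22.9% and 24.98% preadipocyte-like cells, the latter near the 21.0% to 22.3% of the other 4 libraries. Most of their progenitor-like cells at resolution 1 lay in 2 clusters with low scores for progenitor markers. Shares in 1 library add up to the whole, so a class can be lower because another is higher.

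**Figure D2:**
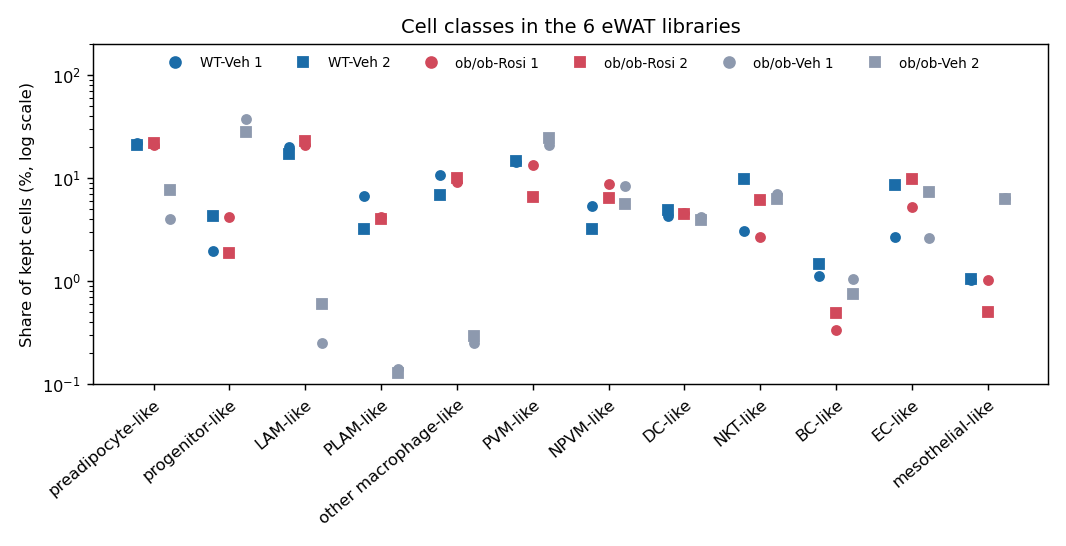
Share of kept cells (%, log scale) in 12 classes, for the 6 eWAT libraries, 1 point a library. The WT-Veh and ob/ob-Rosi points lie near each other in most classes, BC-like cells are lower in both ob/ob-Rosi libraries (0.339% and 0.497% against 1.11% and 1.47%), and the ob/ob-Veh points lie apart in the progenitor-like and LAM-like classes.

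Over all kept cells, 1 of 15845 genes tested passed (0.00631%). It was Igkc, the constant region of the immunoglobulin kappa light chain, secreted by B lineage cells (ENSMUSG00000076609, GRCm38 chromosome 6, 70726435 to 70726966, plus strand). Igkc stood at 984 and 617 CPM in the WT-Veh-labelled libraries, 794 and 723 in the ob/ob-Veh-labelled libraries and 44.2 and 48.1 in the ob/ob-Rosi-labelled libraries. The pair labelled ob/ob-Rosi was below the other 4, with a log2 change of -4.14 ± 0.358 (edgeR's quasi-likelihood test, adjusted p = 0.0269). The call was lost without either ob/ob-Rosi library or the first WT-Veh library, with barcodes that carried markers of 2 lineages removed, and with no upper limit on UMIs and genes. In all, 0 genes passed without WT-Veh 1 and 2 without WT-Veh 2. Ighm, the heavy chain of IgM, stood at 456 and 431 against 187 and 80.9 but did not pass (adjusted p = 1). In bulk sums of this kind, fewer cells of a type and less RNA per cell cannot be told apart. Summed BC markers, 7 of 8 of them below in both ob/ob-Rosi libraries (9.56% of all genes were), stood at 488 and 490.4 against 200.1 and 103. The smallest exact permutation p that 2 against 2 allows is 0.333, so p-values come only from the fit across genes, and 316 genes had an unadjusted p under 0.05 while DESeq2 called 16.

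Inside the BC-like cells Igkc stood at 116142 and 71714 against 10448 and 25414 CPM, a difference that did not pass (log2 change -2.71 ± 0.633, adjusted p = 0.677). There Ighm was 40469 and 36064 against 40741 and 1857 and Jchain, which joins secreted IgM and IgA, 7104 and 7099 against 8179 and 65.3, so ob/ob-Rosi 1 was at the WT-Veh level and ob/ob-Rosi 2 far under it. Igkc was below in both ob/ob-Rosi libraries in 11 of 12 classes, the exception being the NPVM-like cells. Jchain was below in 9 and Ighm in 7. Cells outside the B lineage do not make these chains, so their Igkc UMIs can come from free RNA in the suspension or from doublets, and the part of either was not tested.

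Genes that mark fat cells and PPARG action did not pass over all cells. Plin1, the coat protein of the fat droplet, was 1.83 and 2.64 against 0.116 and 0.405 CPM, a log2 change of -2.98 ± 0.6 with an adjusted p of 1. Adipoq, the adipocyte hormone adiponectin, was 2.8 and 2.34 against 0.725 and 1.15, and Arxes1, a gene bound by PPARG in fat cells, 0.666 and 1.29 against 0.145 and 0.34. Lep went the other way, at 0.784 and 0.996 against 1.74 and 4.49 (log2 change 1.84 ± 0.77). All 4 sat at a few CPM or fewer, and summed adipocyte transcripts in the same libraries were 36.7 and 67.8 against 27.1 and 39.4.

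More abundant genes showed smaller differences. Pparg itself was 28.8 and 40.1 against 29.3 and 38.4, and Fabp4, the fatty acid binding protein of fat cells and capillaries, 2964 and 6126 against 3139.8 and 5678, each with a log2 change of 0.00 that turns sign between settings. Cd36, the fatty acid translocase, was 1699.6 and 1513 against 1758 and 1089, and Aqp7, the glycerol channel, 10.1 and 34.4 against 11.3 and 16.1. The stromal markers Pdgfra, Pi16 and Dpp4 overlapped between groups, with log2 changes of -0.09, 0.33 and -0.31, and so did Icam1 (0.23). Of the 6 ribosomal protein genes that the study names, log2 changes ran from -0.37 (Rpl23a) to 0.10 (Rps3a1), and none passed. Of all 82 ribosomal protein genes tested 30 (36.6%) lay below in both ob/ob-Rosi libraries and 1 above, against 9.56% and 7.92% of all genes, with a median log2 change of -0.11 beside 0.01. With TMM scaling of the levels 16 (19.5%) lay below and 0 above, against 9.49% and 9.37%.

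Genes that came nearest to passing over all cells are given as values. Mmp12, macrophage elastase, was 119 and 69.4 against 586 and 409 CPM (log2 change 2.37 ± 0.426, adjusted p = 1). Itgax, the integrin CD11c of macrophages and dendritic cells, was 30.4 and 26 against 91 and 67.8 (log2 change 1.48 ± 0.247, adjusted p = 0.89). Nrep, made by stromal cells, was 22.2 and 26 against 45 and 70.6. Lower values were seen for Adm, the vasodilator peptide adrenomedullin, at 35.5 and 47.9 against 20.3 and 18.1, and for Fcna, a lectin of resident macrophages, at 317 and 232 against 125 and 65.

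Between classes, EC-like cells held 27 of the 36 calls, which fell on 33 genes, with 18 lower and 9 higher in the ob/ob-Rosi-labelled libraries, of 10856 tested (0.249%). LAM-like cells held 5 and proliferating LAM-like (PLAM-like) cells 4. The other 9 classes held 0 (0% of the genes tested in each), with 146 to 294 genes at an unadjusted p under 0.05 and 0 to 3 DESeq2 calls in each. All of these counts were higher with a block on the replicate number, given at the end. The labels do not say what that number marks.

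The EC-like class came from 2 clusters that had all 10 endothelial markers, and counted 396 and 556 cells in the WT-Veh-labelled libraries, 495 and 990 in the ob/ob-Rosi-labelled libraries, and 239 and 567 in the ob/ob-Veh-labelled libraries. In the first WT-Veh library 238 of its cells fell in the shallower cluster and 158 in the deeper, while in the second ob/ob-Rosi library 678 fell in the deeper and 312 in the shallower. The library labelled WT-Veh 1 was the thinnest of the 4 compared, at 929070 UMIs in this class. No gene passed without it, 8 passed without WT-Veh 2 (5 of the 27 among them), 67 or 68 without either ob/ob-Veh library, and 68 without ob/ob-Rosi 2. All 27 kept their direction in every alternative that gave them a value. With cells assigned singly to the class of their highest marker score, 8 of the 27 still passed.

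Lower genes with a known part in the use of fatty acids are given first. Plin1 was 17.2 and 10.4 CPM in the WT-Veh-labelled libraries, 15.5 and 13.2 in the ob/ob-Veh-labelled libraries and 0 and 0.199 in the ob/ob-Rosi-labelled libraries (ENSMUSG00000030546, GRCm38 chromosome 7, 79720218 to 79732903, minus strand, adjusted p = 0.00836). This is 46 UMIs against 1, a ratio of 80.9 with a 95% counting interval of 13.8 to 3263. Plin1 is also among the adipocyte transcripts summed below, whose part in the EC-like results was not tested. Pdk4, the kinase that turns pyruvate dehydrogenase off when fatty acids are burned, was 53.8 and 37.2 against 4.17 and 3.59 (ENSMUSG00000019577, GRCm38 chromosome 6, 5483351 to 5496309, minus strand, log2 change -3.58 ± 0.443, adjusted p = 0.00836). In the ob/ob-Veh-labelled libraries it was 40.9 and 21.3, near the WT-Veh values.

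Rbp7, a retinol binding protein of capillary endothelium and a known PPARG target there, stood at 3741 and 2929 in the WT-Veh-labelled libraries, 2143 and 1449 in the ob/ob-Veh-labelled libraries and 655 and 702 in the ob/ob-Rosi-labelled libraries (ENSMUSG00000028996, GRCm38 chromosome 4, 149449687 to 149454978, minus strand). The change was -2.34 ± 0.286 on the log2 scale, 5.08-fold (adjusted p = 0.00836), and ran from -2.51 to -2.08 over the alternatives. Without the first WT-Veh library it was -2.08 with an adjusted p of 0.0647. Rbp7 was below in both ob/ob-Rosi libraries in all 12 classes, and stood far lower outside EC-like cells than in them.

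Lipg, endothelial lipase, was 57 and 26.1 against 2.98 and 2.39 (log2 change -3.96 ± 0.664, adjusted p = 0.0312). Fabp5, the epidermal fatty acid binding protein, was 4045 and 3468 against 1316 and 1108, and here the ob/ob-Veh-labelled libraries were lower still, at 727 and 604. Fabp5 is also a LAM marker. Summed LAM markers in the EC-like cells were 8570 and 8166 against 6356 and 6778, but Fabp5 itself is counted in that sum. Of the 10 LAM markers there, 2 lay below and 3 above in both ob/ob-Rosi libraries, against 13.7% and 17.2% of all genes. Srebf1, the regulator of fatty acid synthesis, was 52.7 and 57.7 against 15.5 and 16.8 and 21.1 and 27.3 in the ob/ob-Veh pair.

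Npr3, the clearance receptor for natriuretic peptides, was 313 and 474 against 72.6 and 91.6, a 4.89-fold difference (log2 change -2.29 ± 0.28, adjusted p = 0.00836, ENSMUSG00000022206, GRCm38 chromosome 15, 11839896 to 11907287, minus strand). The ob/ob-Veh-labelled libraries held 405 and 366, within the range of the WT-Veh pair. Filip1l was 381 and 284 against 75.6 and 84.8. Other lower genes, named after their values were seen, were Slc39a8, a zinc and manganese carrier, Osbpl6, Ak1, Chst2, Fzd1, Sdk2, Slit3, Pdk1 and 4931406C07Rik, with log2 changes from -3.38 (Slc39a8) to -1.36 (4931406C07Rik).

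For 16 of the 18 lower genes both libraries labelled ob/ob-Veh lay above both labelled ob/ob-Rosi. For 12 of the 18 they lay below both labelled WT-Veh, and for 10 of the 18 (55.6%) they did both and so lay between the pairs. Of the 1490 genes below in both ob/ob-Rosi libraries, chosen without the test, the 3 shares were 46.8%, 47% and 6.58%. Comparisons with either group share the ob/ob-Rosi libraries, and these counts are a description.

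**Figure D3:**
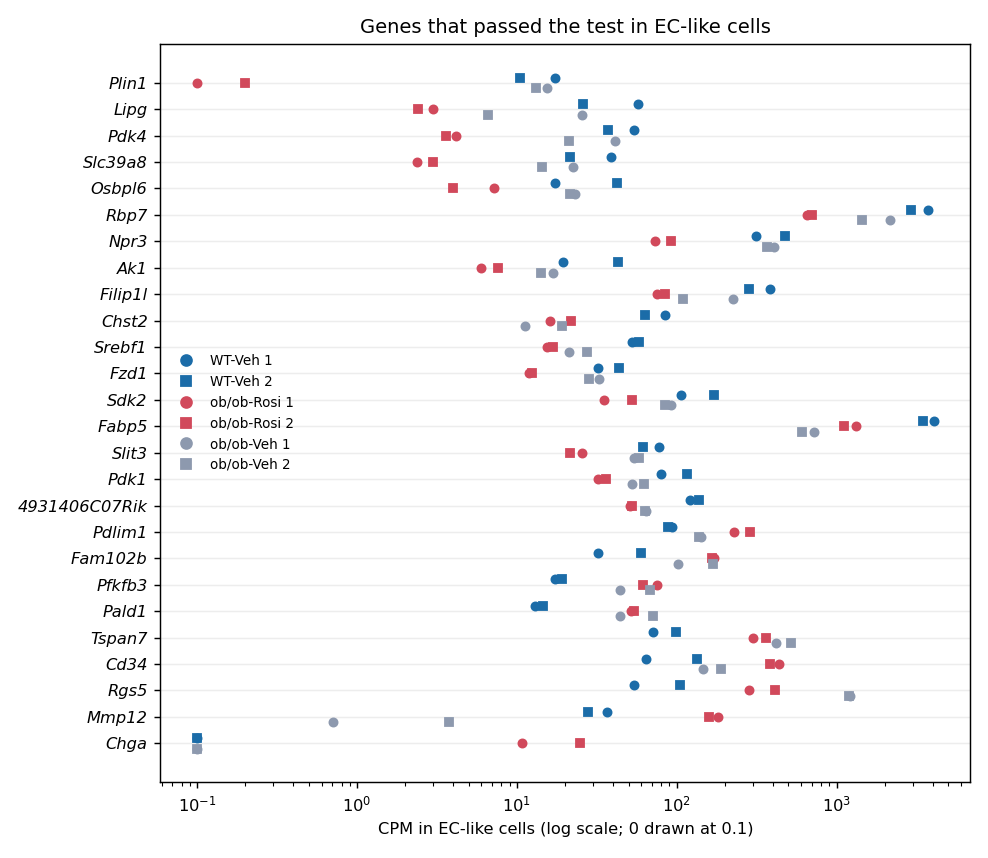
CPM in EC-like cells (log scale, 0 drawn at 0.1) for 26 of the 27 genes that passed, 1 point a library, in order of log2 change from lowest to highest. All ob/ob-Rosi points lie left of the WT-Veh points for the 17 lower genes drawn and right of them for the 9 higher genes, and most ob/ob-Veh points lie between them or beside 1 of the pairs.

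Of the 9 higher genes, those known from blood vessels are given first. Cd34, the sialomucin of vascular endothelium and stromal cells, was 64.6 and 133 in the WT-Veh-labelled libraries and 438 and 381 in the ob/ob-Rosi-labelled libraries (log2 change 1.98 ± 0.311, adjusted p = 0.0258). Tspan7, a tetraspanin, was 71 and 98.7 against 298 and 362, and 420.1 and 518 in the ob/ob-Veh-labelled libraries (log2 change 1.91 ± 0.269, adjusted p = 0.0152). Pald1, a phosphatase-like protein of endothelium, was 12.9 and 14.6 against 51.8 and 54.1 (log2 change 1.89 ± 0.314, adjusted p = 0.0312). None of these pairs overlapped.

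Rgs5, a marker of pericytes, was 53.8 and 104 against 283 and 413, and 1205 and 1199 in the ob/ob-Veh-labelled libraries (log2 change 2.08 ± 0.322, adjusted p = 0.0252). Summed mural cell markers were 178 and 279 against 411 and 721 CPM, and 1566 and 1580 in the ob/ob-Veh pair. Rgs5 is counted in that sum, and much of the rise from WT-Veh to ob/ob-Rosi is its own. Of the 10 mural markers 3 were above in both ob/ob-Rosi libraries, where 17.2% of all genes tested in EC-like cells were, 0 were below and 0 were at 0 in all 4. With barcodes that carried markers of 2 lineages removed, the Rgs5 change was 0.868 with an adjusted p of 0.653.

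Mmp12 was 36.6 and 27.8 against 182 and 158 in EC-like cells (log2 change 2.40 ± 0.323, adjusted p = 0.0134), but it is a macrophage gene and was above in both ob/ob-Rosi libraries in all 12 classes. Summed macrophage markers in the EC-like cells were 6347 and 5026 against 7203 and 5952. Summed red cell markers there were 119 and 291 against 1160 and 539, with 4 of 4 above in both ob/ob-Rosi libraries, against 17.2% of all genes, and 1050.3 and 2471 in the ob/ob-Veh pair, and their part in the EC-like results was not tested. Chga, the granule protein chromogranin A, had no UMI in either WT-Veh or ob/ob-Veh library and 10.7 and 24.9 CPM in the ob/ob-Rosi pair, at least 27.1-fold higher against a floor of 3 UMIs over the WT-Veh pair (0.788 CPM, counting error only). Pfkfb3, an activator of glycolysis, was 17.2 and 19.1 against 75.6 and 61.2. Fam102b and Pdlim1 were the remaining pair (log2 changes 1.79 and 1.47), and these and Chga were named after their values were seen. In 7 of the 9 genes both ob/ob-Veh libraries lay above both WT-Veh libraries, in 4 both lay below both ob/ob-Rosi libraries, and in 2 (22.2%) both held. Of the 1870 genes above in both ob/ob-Rosi libraries, the same 3 shares were 62%, 29.5% and 4.76%, with the same limits as for the lower genes.

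A list of 31 PPAR target genes was followed through the classes. In EC-like cells 27 were tested, 3 passed as lower, Plin1 and Pdk4 among them, and 0 as higher. For 17 of the 27 (63.0%) both libraries labelled ob/ob-Rosi lay below both labelled WT-Veh, against 13.7% of all genes tested, and for 0 above. The median log2 change of the list was -1.07, beside 0.00 for all genes.

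Members that did not pass included secreted and membrane proteins of lipid handling. Angptl4, an inhibitor of lipoprotein lipase, was 1427 and 1849 against 326 and 800.1 (log2 change -1.57 ± 0.37, adjusted p = 0.114). Aqp7 was 419.8 and 417 against 223 and 187 (adjusted p = 0.102), and 672 and 777 in the ob/ob-Veh-labelled libraries. Cyp4b1, a cytochrome P450, was 553 and 1066 against 286 and 367 (adjusted p = 0.104).

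Plin2, a droplet coat protein of many cell types, was 1537 and 1399 against 562 and 898, and Cd36 6758 and 6160.3 against 5365 and 3255, each without overlap and with adjusted p of 0.217 and 0.571. Fabp4, the most abundant member, did not follow, at 43276 and 50828 against 40339 and 53221 (log2 change -0.05 ± 0.223, with a sign that turns between settings). Nor did Lpl, lipoprotein lipase, at 1200.1 and 1838 against 1619 and 2051. Pparg, the receptor, was 206 and 255 against 135 and 163 (log2 change -0.66 ± 0.268, adjusted p = 0.547). Summed adipocyte transcripts were 183 and 223 against 152 and 161 in the EC-like cells and 2061 and 1650 in the ob/ob-Veh pair. That list shares Plin1, Adipoq, Cidec, Lipe and Pck1 with the PPAR target list. Of its members 6 of 11 lay below in both ob/ob-Rosi libraries and 2 above, against 13.7% and 17.2% of all genes. The part of adipocyte RNA in the EC-like results was not tested.

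Of 20 genes of vascular growth and lipid uptake 19 were tested, and Fabp5 alone passed, where 0.249% of all genes did. In both ob/ob-Rosi libraries 7 (36.8%) lay above and 5 (26.3%) below, against 17.2% and 13.7% of all genes. Kdr, Flt1, Tie1 and Gpihbp1 of this list are also among the 10 markers that named the EC-like class. Of those 10 markers 5 lay above and 2 below in both ob/ob-Rosi libraries. The receptors nearest to passing were Aplnr, the apelin receptor, at 20.5 and 29.9 against 94.7 and 60.04 (adjusted p = 0.0714), and Tie1 at 104 and 108 against 207 and 247 (adjusted p = 0.104). Kdr, the main VEGF receptor, was 750.2 and 1327 against 625 and 675. Flt1 and Gpihbp1, the lipase carrier of capillaries, overlapped between groups (log2 changes 0.25 and -0.14).

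**Figure D4:**
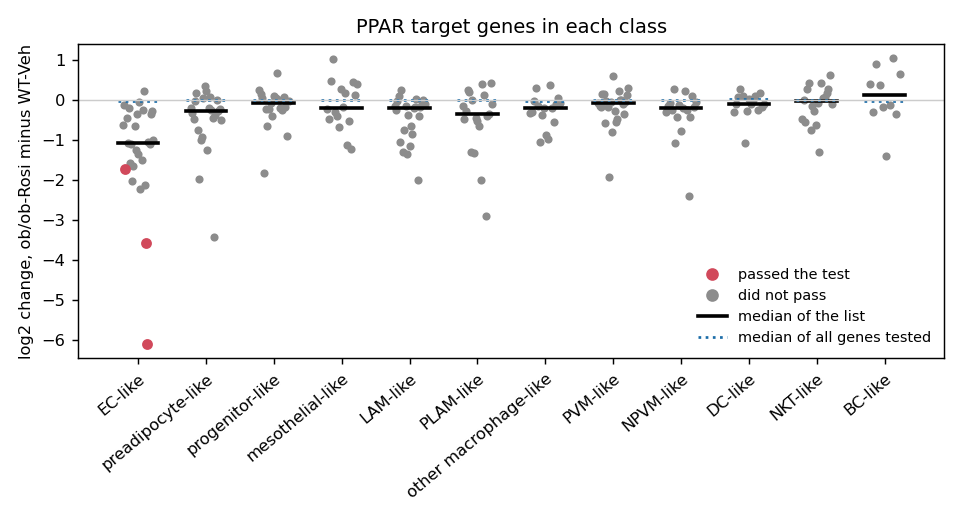
Log2 change (ob/ob-Rosi minus WT-Veh) of each PPAR target gene tested in 12 classes, 1 point a gene, red where it passed, with the list's median as a black bar and the median of all genes tested as a dotted line. The EC-like list lies lowest, with a median of -1.07 and the 3 genes that passed, and the other class medians run from -0.33 (PLAM-like) to 0.13 (BC-like).

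In the other classes 0 members of the list passed. In LAM-like cells 23 were tested and 9 (39.1%) lay below in both ob/ob-Rosi libraries, against 15.1% of all genes, with a median of -0.20. In PLAM-like cells 8 of 19 (42.1%) lay below, against 13% of all genes, with a median of -0.33. In preadipocyte-like cells 7 of 23 (30.4%) lay below, against 9.81%, with a median of -0.26, and over all kept cells 10 of 28 (35.7%), against 9.56%. The list had 2 of 19 below (10.5%) in progenitor-like cells, against 13.8%, 5 of 23 (21.7%) in PVM-like cells, against 11.9%, and 4 of 17 (23.5%) in NPVM-like cells, against 10.1%. It had 4 of 16 below and 2 above in other macrophage-like cells, against 9.58% and 12.9%, 1 of 15 below and 1 above in DC-like cells, against 7.09% and 18.4%, and 3 of 18 below and 2 above in NKT-like cells, against 10.6% and 15.8%. In BC-like cells 1 of 10 lay below and 2 above, against 9% and 23.3%, and in mesothelial-like cells 3 of 16 below and 4 above, against 15.7% and 12.1%. Whether EC-like cells differed from the other classes in this was not tested.

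The preadipocyte-like members were uneven. Fabp4, Cd36 and Lpl of the list, and Pparg, are among the markers that named this class. Their differences are therefore in level among cells named in part by them. Fabp4 was 2122 and 3595 against 919 and 1474 CPM and Cd36 268 and 212 against 147 and 112, each without overlap and with an adjusted p of 1. Angptl4 was 457 and 485 against 221 and 349.6. Lpl at 2319 and 2522 against 2559.8 and 1542 and Pparg at 12.3 and 20.1 against 8.63 and 20.03 overlapped.

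In LAM-like cells 5 of 11704 genes passed (0.0427%), 3 higher and 2 lower. Mmp12 was 252 and 186 CPM in the WT-Veh-labelled libraries and 1264 and 960.0 in the ob/ob-Rosi-labelled libraries, a 5.17-fold difference (log2 change 2.37 ± 0.267, adjusted p = 0.000117, ENSMUSG00000049723, GRCm38 chromosome 9, 7344381 to 7369499, plus strand). The few LAM-like cells of the ob/ob-Veh pair, 23 and 47, stood at 1343 and 1135, beside the ob/ob-Rosi values. Itgax was 56.7 and 53.8 against 183 and 135 (log2 change 1.55 ± 0.26, adjusted p = 0.0152) and 244 and 191 in the ob/ob-Veh pair. Btbd17, named after its values were seen, was 1.54 and 1.73 against 11.2 and 6.81 (adjusted p = 0.0187). Mmp12 is among the markers that named the class, so its difference is in level among cells named in part by it.

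Nptx1, neuronal pentraxin, also named after its values were seen, was 16.5 and 20.3 against 3.24 and 4.16 (log2 change -2.26 ± 0.318, adjusted p = 0.00243). Igkc was 55.7 and 50.8 against 11.8 and 3.01 (adjusted p = 0.00371), a gene these cells do not make. The count of called genes was 17 without either ob/ob-Rosi library, 18 without WT-Veh 1 and 22 without WT-Veh 2, and all 5 kept their direction. With barcodes that carried markers of 2 lineages removed 2 of the 5 still passed, and at resolution 2 of the clustering 3 did. Itgax lost its call in these and without WT-Veh 2 (adjusted p up to 0.122), Btbd17 in these and without ob/ob-Rosi 1 (up to 0.359), and Nptx1 with those barcodes removed (0.144). The class joined 3 clusters, of which the first was led by the chemokine and cytokine genes Cxcl2, Ccl3 and Tnf and the second by Gpnmb and Mmp12. The second held 951 and 340 cells of the WT-Veh pair and 474 and 939 of the ob/ob-Rosi pair, and the cluster that held most cells of WT-Veh 1 (1380) held 327 of ob/ob-Rosi 2.

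Of 22 genes of the lipid-associated programme in LAM-like cells, 2 passed (Mmp12 and Itgax), both higher, where 0.0427% of all genes passed, and the median log2 change was 0.07. In both ob/ob-Rosi libraries 7 of the 22 (31.8%) lay above and 4 (18.2%) below, against 10% and 15.1% of all genes. All 10 markers that named the class are in this list, and 5 of these lay above and 1 below. The shares therefore come in part from genes that picked the cells. Trem2, the lipid receptor that defines these cells, was 1837 and 1858 against 1743 and 2163, and Lgals3, galectin 3, 8499 and 7773 against 8294 and 9672, with overlap in each. Gpnmb, a lysosomal glycoprotein, was 1771 and 1639.8 against 2186 and 2083, and Apoe, the apolipoprotein of cholesterol export, 23805 and 25620.4 against 19526 and 14685 (adjusted p = 1 for each). Angptl4 came near to passing at 161 and 159.9 against 55.5 and 73.5 (log2 change -1.28 ± 0.248, adjusted p = 0.0734), and so did Ear2, a ribonuclease of monocytes, at 77.9 and 99.9 against 36 and 26.3 (adjusted p = 0.0793).

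PLAM-like cells, LAM-like cells that divide, were fitted on the 4 libraries compared because the ob/ob-Veh-labelled libraries held 13 and 10 of them. Of 10259 genes, 4 passed (0.039%). Mmp12 was 118 and 55.3 against 749 and 297 (log2 change 2.56 ± 0.391, adjusted p = 0.00278) and Igkc 29.1 and 43 against 6.8 and 3.02 (adjusted p = 0.00104). The Mmp12 change ran from 1.74 to 3.35 when 1 library was left out. Mt3, a metallothionein, was 47 and 10.8 against 5.18 and 5.83 (adjusted p = 0.0487), where WT-Veh 1 carried most of the difference. Hbb-bs, a globin chain of red cells, was 2.3 and 2.05 against 107 and 4.75 (adjusted p = 0.0131), high in 1 library alone, and summed red cell markers were 4.46 and 6.66 against 184 and 8.64. The count was 42 without ob/ob-Rosi 1, 47 without ob/ob-Rosi 2 and 18 without either WT-Veh library. DESeq2 called 1 of the 4, and with cells assigned singly 0 genes passed.

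**Figure D5:**
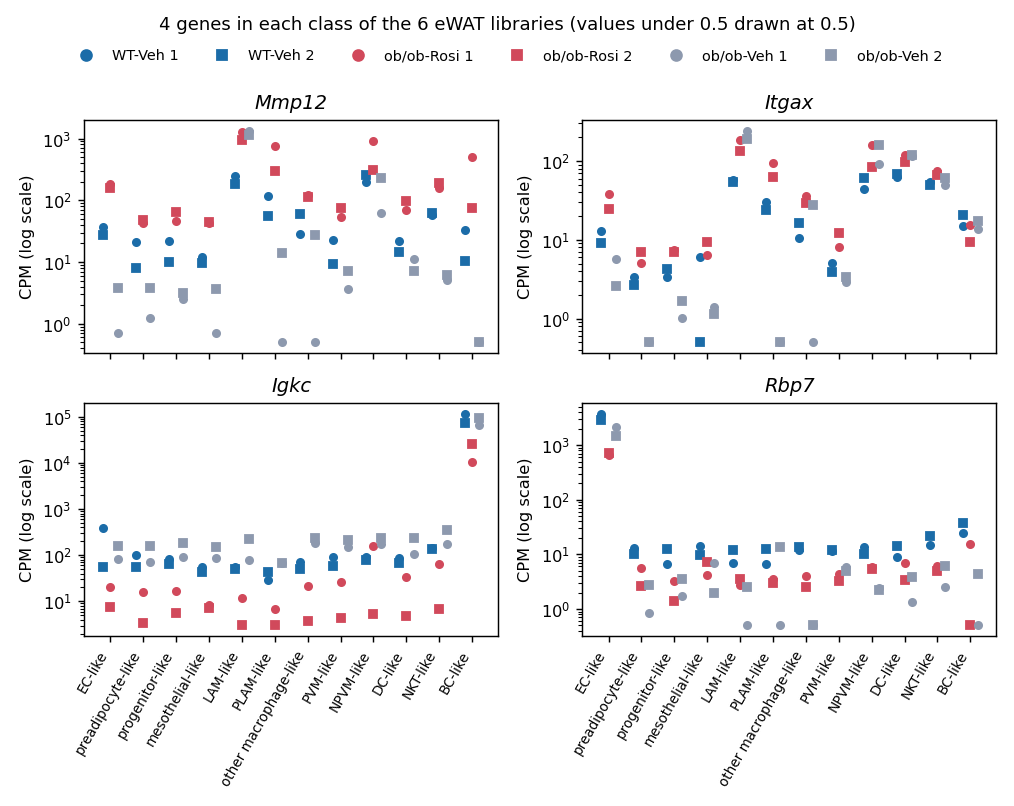
CPM (log scale, values under 0.5 drawn at 0.5) of Mmp12, Itgax, Igkc and Rbp7 in 12 classes, 1 point a library. Mmp12 is above in both ob/ob-Rosi libraries in all 12 classes and Itgax in 11, Igkc is below in 11 and Rbp7 in 12, and Rbp7 is high in EC-like cells alone (655 and 702 against 3741 and 2929).

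In the 9 classes without called genes the closest genes are given as values. In progenitor-like cells Adm was 135 and 204 against 51.5 and 50.2 (adjusted p = 0.373) and Nrep 18.6 and 28.8 against 68.9 and 86.4 (adjusted p = 0.438). In preadipocyte-like cells Adm was 189 and 184 against 81.9 and 67.7 (adjusted p = 0.9), the same direction as in the progenitor-like cells. Sfrp2, a secreted modulator of Wnt, was 88.1 and 82 against 38.1 and 33.5, and Tppp3, a tubulin binding protein, 99.3 and 82 against 349.6 and 219. The pairs did not overlap in any of these.

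Among immune classes, other macrophage-like cells, which had macrophage markers without those of a named type, held Ear2 at 35.1 and 41.1 against 10.3 and 8.43 (adjusted p = 0.0625). Dendritic cell-like (DC-like) cells held Mmp12 at 22 and 14.4 against 70.0 and 98.7 (adjusted p = 0.072). NPVM-like cells held Il6, the cytokine, at 63.6 and 56.7 against 21.3 and 8.53 (adjusted p = 0.747). Mesothelial-like cells held Dmkn, dermokine, at 71.2 and 53 against 224 and 331 (adjusted p = 0.22).

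Perivascular macrophage-like (PVM-like) cells, the resident type with Lyve1 and Cd163, and natural killer and T cell-like (NKT-like) cells each had a gene list with most members below, without a gene that passed. These 2 lists were picked from many that were counted in each class. Of 23 interferon-stimulated genes tested in PVM-like cells 0 passed, 16 (69.6%) lay below in both ob/ob-Rosi libraries, against 11.9% of all genes, and the median log2 change was -0.66. Irf7, the interferon regulatory factor, was 25.7 and 33.2 against 12.3 and 12.8 CPM and 17 and 15.7 in the ob/ob-Veh pair, and Isg15, a ubiquitin-like protein, 30.3 and 32.6 against 18.6 and 11.8 (adjusted p = 1 for each). The same list had 8 of 17 below (47.1%) and 0 above in progenitor-like cells, against 13.8% of all genes, and 8 of 21 below (38.1%) and 1 above in NPVM-like cells, against 10.1% and 15.5%. In EC-like cells 2 of 21 lay below (9.52%), against 13.7%, and 7 above (33.3%), against 17.2%. Of 19 cell cycle genes tested in NKT-like cells 0 passed, 12 (63.2%) lay below, against 10.6% of all genes, and the median was -1.08. Pclaf, a partner of the replication clamp, was 47.5 and 80.7 against 28.1 and 18.5 (adjusted p = 1). A cluster led by Top2a, Pclaf and Mki67 was left unnamed and lay outside the NKT-like class. It held 46 and 12 cells of the WT-Veh pair and 53 and 59 of the ob/ob-Rosi pair.

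The same contrast in iWAT, from its own 4 libraries in a fit over all 12, gave values side by side. Log2 differences over all cells in iWAT were -1.96 for Rbp7, -3.63 for Plin1, -1.81 for Pdk4, -1.56 for Angptl4, 1.14 for Mmp12 and 0.93 for Lep, and none passed. Igkc in iWAT was 253 and 37.7 in the WT-Veh-labelled libraries and 497 and 13.2 in the ob/ob-Rosi-labelled libraries, with full overlap (log2 change 0.78 ± 1.3). The test of the difference between depots called 0 of 16631 genes (0%), with 375 at an unadjusted p under 0.05 and 1 by DESeq2. Without iWAT WT-Veh 2 it called 36.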

How the data were processed

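Each library is a 10x Genomics single-cell RNA library of the stromal vascular fraction. The deposited matrices hold raw counts (UMIs per gene and barcode) that the authors made with bcl2fastq 2.19.1.403 and Cell Ranger 3.0.2 on mm10, per the labels and the study's methods, and carry no normalization. Counting by UMI removes PCR copies, so intervals cover counting error only, and the 3′ reads give no level per gene length. Free RNA was not subtracted. No doublet caller was run. Barcodes with 3 or more detected markers of 2 lineages, or with a high level of both, were removed as alternatives, but the first rule took 42.7% to 82.7% of barcodes and so is not specific to doublets. Whether 1 library was present as 2 copies was checked within each eWAT group by a chi-square test of replicate counts, which gave 152 to 259 per degree of freedom. Kept barcodes shared between libraries were also counted. The 2 largest excesses were eWAT ob/ob-Rosi 1 with iWAT WT-Veh 1 (99, where 46.0 were expected) and eWAT ob/ob-Veh 1 with iWAT ob/ob-Rosi 1 (94, where 25.3 were). Their cause was not tested.

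Kept cells of the 6 eWAT libraries were clustered with leidenalg 0.10.2 (2000 variable genes, 25 principal components, resolution 1) with no batch correction, and clusters were named from marker lists. Perivascular, non-perivascular and lipid-associated names follow the study. UMIs were summed per library and class, and tested with edgeR 4.0.16 (TMM factors, filterByExpr, quasi-likelihood test without the robust option). A library entered the fit of a class if it held at least 20 of its cells, which left the ob/ob-Veh libraries out for PLAM-like cells. DESeq2 1.42.0 was an alternative. Numbers of cells per class were tested with the same model on the total of kept cells. Named genes are called genes with a mean of at least 20 CPM and no overlap (up to 5 a direction), the closest 3 where fewer than 3 passed, genes the study names, called members of the lists and the closest members otherwise. Others are marked as chosen after their values were seen. A called gene is counted but not reported here. Members, gene lists and tests were chosen with earlier results of these data known. The statistic was tested on counts simulated with the same spread for every gene and no difference in cell make-up. That test cannot show how the statistic behaves at the spread of these libraries. Each sample is 1 mouse, and groups came from the labels. Gene positions are from GENCODE vM21 (GRCm38). The authors compared cells with a Wilcoxon test, which was not used here because cells of 1 mouse are not replicates.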

Additional observations from a re-analysis of the deposited data

How the results depend on the processing

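The counts of calls moved with the settings more than the directions did, with 2 mice a group. Over 603 alternatives of the 37 called results for genes, the direction and the call held in 475, the call was lost in 127 and the direction turned in 1. Over 963 alternatives of the genes named without a call, the direction turned in 31. In the 4 libraries alone the test called 2 genes over all cells, 71 in the classes together, 59 in EC-like cells, 3 in the 9 classes with none, and 0 classes by cell number. DESeq2 called 16, 124, 98 and 14 in the same order of genes, and 1 gene between depots. Without a filter on low counts the calls were 430 in the classes together, 223 in EC-like, 43 in LAM-like, 40 in PLAM-like and 124 in the other 9. With barcodes that carried markers of 2 lineages removed they were 0 over all cells, 18 in the classes together, 8 in EC-like, 2 in LAM-like, 8 in PLAM-like, and 0 by cell number. With no upper limit on UMIs and genes, chosen after seeing the data, 0 genes passed over all cells. At clustering resolution 2 the calls were 55 together, 47 in EC-like, 3 in LAM-like and 1 in the other 9, and 0 by cell number. With cells assigned singly they were 14, 8 in EC-like, 0 in PLAM-like and 1 in the other 9, and 0 by cell number. Removing barcodes with high marker levels of 2 lineages, also added after seeing the data, kept 25 of the 27 EC-like calls. Under the planned removal of barcodes with markers of 2 lineages, 12 of the 27 had a value and 4 still passed. The cause of these differences was not tested.

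The log2 ratio of BC-like cells no longer passed at -1.62 (4 libraries, and resolution 2), -1.26 (markers of 2 lineages removed) and -0.764 (singly assigned). The sign turned for preadipocyte-like cells (-0.424 with markers of 2 lineages removed, -0.0157 singly assigned) and progenitor-like cells (0.109 with those barcodes removed). Among genes it turned for Fabp4 over all cells (0.00343 by DESeq2, 0.016 unfiltered), Pparg over all cells (0.0121 unfiltered, 0.119 with markers of 2 lineages removed, 0.0471 with no upper limit), Lpl in preadipocyte-like cells (0.0176) and Lgals3 in LAM-like cells (-0.0529) with markers of 2 lineages removed, Igkc in PLAM-like cells (1.51 singly assigned), and Fabp4 in EC-like cells (0.128 and 0.0371 under the 2 removals, 0.0169 at resolution 2, 0.0151 singly assigned).

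Leaving out 1 library at a time gave 0 to 2 calls over all cells, 52 to 165 in the classes together, 0 to 68 in EC-like, 5 to 22 in LAM-like, 18 to 47 in PLAM-like, 12 to 81 in the other 9 classes, 0 to 0 by cell number and 0 to 36 between depots. Log2 ratios of cells ran from -1.92 to -1.37 (BC-like), -0.116 to 0.0648 (DC-like), -0.188 to 1.49 (EC-like), -1.27 to 0.535 (NKT-like), -0.715 to 0.367 (PLAM-like), -0.146 to 0.487 (other macrophage-like), -0.0268 to 0.0317 (preadipocyte-like) and -0.741 to 0.648 (progenitor-like). Log2 changes that turned ran from -1.21 to 0.347 (Aqp7), -0.528 to 0.0886 (Cd36), -0.935 to 0.129 (Dpp4), -0.534 to 0.485 (Fabp4), -0.745 to 0.362 (Pdgfra), -0.252 to 0.215 (Pparg) and -0.193 to 0.351 (Rps3a1) over all cells, -0.649 to 0.0688 (Lpl) and -0.917 to 0.308 (Pparg) in preadipocyte-like cells, -0.0592 to 0.274 (Trem2) in LAM-like cells, and -0.283 to 0.167 (Fabp4) and -0.832 to 0.338 (Gpihbp1) in EC-like cells. Where 1 library of a group remained, its spread was taken from the other groups.

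The labels do not say that a replicate number marks a shared litter, batch or day, and each group had 2 numbers. Deviations of same-numbered libraries from their group means, over 9164 genes, correlated at 0.206 between the groups compared, 0.477 between WT-Veh and ob/ob-Veh and 0.313 between ob/ob-Rosi and ob/ob-Veh, a hint from the data and not the design. Blocking on the replicate number gave 2 calls over all cells, 369 in the classes together, 277 in EC-like, 46 in LAM-like, 29 in PLAM-like, 17 in the other 9 and 0 by cell number, with log2 ratios of -1.62 (BC-like) and -0.00361 (preadipocyte-like, turned).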
